A study of Mus musculus with 9 samples.

Results

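Cytosolic ribosomal protein genes encode the proteins of the ribosome that translates nuclear messages, and their own messages were followed in splenic CD4+ T cells given or not given an inhibitor and a stimulus. The members were the protein-coding genes of GENCODE M21 whose symbol begins with Rpl or Rps and a digit, with Rplp0, Rplp1, Rplp2 and Rpsa, leaving out pseudogenes, the ribosomal S6 kinases and the paralogs whose symbol ends in l. This gave 79 of 45321 annotated genes, made up of 46 genes of the large subunit, 32 of the small subunit and Rps19bp1, which the spelling of its symbol brings in although it encodes a protein that binds Rps19 and is no part of the ribosome.

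Messenger RNA was measured by sequencing in 9 libraries of CD4+ T cells purified untouched, that is without antibody on the cells kept, from spleens of C57BL/6 mice, an inbred laboratory strain. Cells had been kept for 1 h in 12.5 µM Compound 10, described by the series as an inhibitor of NFAT:AP-1, a transcription factor complex of activated T cells, or in the vehicle DMSO. They were then stimulated for 2 h with 10 nM PMA, a phorbol ester acting on protein kinase C, together with 1 µM of the calcium ionophore ionomycin, or were left unstimulated. The groups were Comp10 PI (compound 10 with stimulation, 3 libraries), DMSO PI (vehicle with stimulation, 2 libraries), Comp10 US (compound 10, unstimulated, 2 libraries) and DMSO US (vehicle, unstimulated, 2 libraries). No label says whether libraries of a group came from separate mice or cultures, so p-values rest on a spread between libraries that may be technical. PMA with ionomycin bypasses the T cell receptor, and a total CD4+ population holds naive, memory and regulatory cells together.

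Most ribosomal proteins are needed in equal numbers for each ribosome, and their messages are among the most abundant of a lymphocyte. Most of these messages begin with a C followed by a run of C and T, the 5′ terminal oligopyrimidine (TOP) tract, through which the kinase mTORC1 and the RNA-binding protein LARP1 control how strongly they are translated and how long they last. Resting T cells hold ribosomal protein messages in store and make more ribosomes when they prepare to divide. Messenger RNA levels, as measured here, do not show translation.

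The start sites of 6 members are shown because they span the range from a long tract to none, and because the tract is the sequence feature for which these genes are known. Each line gives 60 bases before the annotated start and the first 20 bases of the transcript, 5′ to 3′ on the gene's strand, from RefSeq on GRCm38.p6. Capitals mark the unbroken run of C and T that includes the start base, where it is at least 5 bases long.
Rps18, chr17:33955646-33955725, minus strand: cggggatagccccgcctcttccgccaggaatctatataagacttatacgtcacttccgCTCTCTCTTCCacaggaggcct
Rpl35, chr2:39005112-39005191, minus strand: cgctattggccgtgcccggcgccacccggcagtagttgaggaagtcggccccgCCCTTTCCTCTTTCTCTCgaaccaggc
Rps27, chr3:90213629-90213708, minus strand: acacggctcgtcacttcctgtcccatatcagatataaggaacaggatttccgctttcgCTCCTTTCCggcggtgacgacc
Rps27rt, chr9:114982720-114982799, minus strand: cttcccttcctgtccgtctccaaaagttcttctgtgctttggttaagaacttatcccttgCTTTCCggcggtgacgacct
Rplp0, chr5:115559407-115559486, plus strand: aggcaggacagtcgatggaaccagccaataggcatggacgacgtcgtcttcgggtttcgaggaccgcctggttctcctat
Rps19bp1, chr15:80264287-80264366, minus strand: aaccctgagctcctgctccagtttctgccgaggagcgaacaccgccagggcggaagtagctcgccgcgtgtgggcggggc
Rps18, a protein of the small subunit's head, and Rpl35, of the large subunit near the exit of the peptide tunnel, had runs of 11 and 18 bases. Rps27, a zinc-finger protein of the small subunit, and its intronless copy Rps27rt had runs of 9 and 6 bases. At the annotated starts of Rplp0 and Rps19bp1 no run reached that length. The annotated start of a gene can differ from the one used, and the start of Rpl35 in RefSeq lay 493 bases from that in GENCODE.

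Start windows were found for 59 of the 79 members. A C at the start followed by at least 4 bases that are each C or T was present in 14 of them (23.7%), against 3.01% of the 27025 genes with a window. An unbroken run of at least 8 C or T near the start, on the gene's strand, was present in 23 members (39%), against 13% of all genes, and overlaps the first motif. CCGGAAG on either strand within the 300 bases around the start, letters bound by ETS factors, was present in 24 members (40.7%), against 9.93% of all genes. TATAAA just before the start was present in none, against 2.57% of all genes. The 78 genes for mitochondrial ribosomal proteins, which serve the separate ribosome of the mitochondrion, had a C-led tract in 0 of 69 and CCGGAAG in 26 of 69 (37.7%). A match of letters is a description of the window and not a bound site.

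Annotated genes received 10609205 to 21734391 estimated counts in each library. The labelled cell type was checked on 8 CD4 T cell genes, Cd3e, Cd4 and Lck among them, all of which were detected. Their summed level was 1459 to 1711 TPM, counts scaled for length and library total, in Comp10 PI, 1212 to 1656 in DMSO PI, 1121 in each Comp10 US library and 601.3 to 784.3 in DMSO US. Markers of other cells were low but none of the lists was at 0, with 6 B cell genes summing to 11.4 to 55.5 TPM and 7 myeloid genes to 43.5 to 78.9 TPM over all libraries. The 5 natural killer genes summed to 15.6 to 18.3 TPM in Comp10 PI, 6.05 to 7.65 in DMSO PI, 11.3 to 15.0 in Comp10 US and 4.44 to 7.72 in DMSO US, so they moved with compound 10, and their part in the values below was not tested. Ribosomal RNA genes, nuclear and mitochondrial together, took 9.15% to 19.4% of the counts in 8 libraries and 33.5% in DMSO US 2. The nuclear ones alone took 1.79% to 13.9% in the same 8 libraries and 26.5% in DMSO US 2. Scaling factors ran from 0.931 to 1.31 in unstimulated and from 0.832 to 0.987 in stimulated libraries.

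Ribosomal protein messages filled a share of between 9.74% and 13.4% of every library. They made up 11.7%, 9.74% and 11.5% of the estimated counts in Comp10 PI and 10.4% and 10.7% in DMSO PI, against 13.4% and 11.9% in Comp10 US and 10.98% and 12.1% in DMSO US. Comp10 PI averaged 10.98% ± 1.08 (SD, n = 3), DMSO PI 10.6% ± 0.240 (n = 2), Comp10 US 12.7% ± 1.00 (n = 2) and DMSO US 11.6% ± 0.806 (n = 2). The share was lower in the stimulated than in the unstimulated vehicle libraries without overlap, and the compound 10 groups did not overlap either, but this share is relative to all other RNA in the tube. Per transcript length, as TPM, the share averaged 20.2% in Comp10 PI and 20.95% in DMSO PI, against 22.6% in Comp10 US and 22.3% in DMSO US. With ribosomal RNA genes left out of the total it averaged 12.7% in Comp10 PI and 12.5% in DMSO PI, against 14.45% in Comp10 US and 15.3% in DMSO US. On both of these scales stimulated and unstimulated libraries overlapped, with and without compound 10. In bulk RNA, fewer cells expressing a gene and less of its RNA per cell cannot be told apart.

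**Figure D1:**
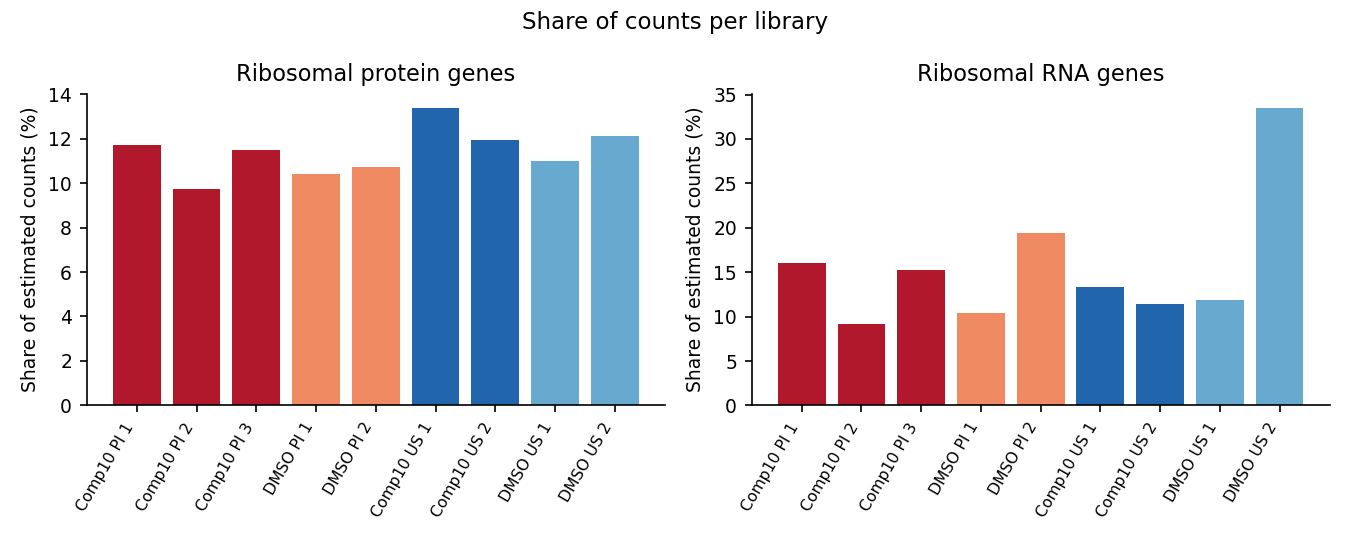
Share of estimated counts (%, y axis) from the 79 ribosomal protein genes (left) and from nuclear and mitochondrial ribosomal RNA genes together (right), 1 bar per library, coloured by group. The ribosomal protein share lies between 9.74% and 13.4% in all 9 libraries, while the ribosomal RNA share runs from 9.15% to 33.5%, the highest in DMSO US 2.

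The members spanned a wide range of message levels. The median member averaged 1983 TPM over the 9 libraries, 60 members were above 1000 TPM, and the 5 highest held 24.2% of all member TPM. Rps27 (chromosome 3, 90212522 to 90213651, minus strand) stood first, with 17695, 22970 and 18024 TPM in Comp10 PI and 18330 and 18899 TPM in DMSO PI, against 20961 and 22685 TPM in Comp10 US and 20264 and 16904 TPM in DMSO US. Its TPM in Comp10 US lay above those in DMSO US and in DMSO PI without overlap, and inside the range of Comp10 PI. Next in order were Rps19, the small-subunit protein mutated most often in Diamond-Blackfan anaemia in humans, with a mean of 8299 TPM, Rps28 with 7818 TPM, Rps29 with 7487 TPM and Rplp1 with 6808 TPM. Across libraries Rps19 ran from 6724 to 10112 TPM, Rps28 from 6802 to 8560, Rps29 from 5225 to 9206 and Rplp1 from 4231 to 8608, so these neighbours did not differ beyond their spread.

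At the low end, Rps12 (chromosome 10, 23785183 to 23787275, minus strand) was listed at 0 in all 9 libraries and was the member that entered no test. Rpl12 averaged 21.8 TPM, Rps19bp1 25.95, Rpl5 81.8 and Rpl27 170 TPM. For most of these the low value goes with a near-identical copy elsewhere in the genome that was listed with the counts. A copy named Rps12-ps3, identical to Rps12 over 494 aligned bases, held 64688 counts over the 9 libraries. Copies, chiefly Gm10275, held 97.2% of the summed counts of Rpl12 and its copies. For Rpl5 that share was 97.1%, chiefly in Gm15500, and for Rpl27 it was 88.0%, chiefly in Rpl27-ps3. In all, 72 members had at least 1 annotated copy of 95% identity or more, in 28 members the copies held over 10% of the combined counts, in 7 they held more than the gene itself, and over all members they held 13.7%. How reads that fit both places were split between them cannot be read from these values, so the level of each such member is uncertain.

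With compound 10 in stimulated cells, no ribosomal protein gene passed the test. Of 78 members tested, 0 were higher and 0 lower in Comp10 PI than in DMSO PI at an adjusted p under 0.05 (edgeR quasi-likelihood test, Benjamini-Hochberg over all 14011 genes tested), against 23.1% of all genes (11.7% higher and 11.4% lower). By DESeq2 the count was 1, Rpl36, and 3 members had an unadjusted p under 0.05. The median log2 fold change of the members was 0.00, as it was for all genes, with 40 members above 0 and 38 below, and the range was -0.54 to 0.71. For 73 of the 78 members (93.6%) the 95% confidence interval lay within a 2-fold change either way, against 33% of all genes. Members of the large subunit had a median of 0.03 and those of the small subunit -0.04. The libraries of Comp10 PI and DMSO PI did not overlap in 13 members, while 47.3% of all genes did not overlap.

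The member with the smallest p in this comparison was Rps19bp1 (chromosome 15, 80260615 to 80264315, minus strand), whose product binds Rps19 and also the deacetylase Sirt1. It had 18.1, 25.9 and 20.6 CPM, counts scaled to the library's effective total, in Comp10 PI, against 35.6 and 27.1 CPM in DMSO PI. Every Comp10 PI library was below both DMSO PI libraries, the nearest pair being 25.9 and 27.1 CPM. The log2 fold change was -0.54 (SE 0.20, 95% interval -0.98 to -0.10, adjusted p = 0.0730). Without Comp10 PI 2, the highest of its group, it was -0.72 with an adjusted p of 0.0206, and without DMSO PI 1, the highest of the other group, it was -0.32 with an adjusted p of 0.428.

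Rpl36, a small protein of the large subunit, had 904, 1022 and 852 CPM in Comp10 PI, against 744 and 548 CPM in DMSO PI. The groups did not overlap, and the log2 fold change was 0.52 (SE 0.20, interval 0.09 to 0.95, adjusted p = 0.0811). The call changed with processing, since Rpl36 passed with upper-quartile scaling (adjusted p = 0.0352), with a stricter filter (0.0327), with DESeq2 (0.0336) and with coding transcripts alone (0.0481). Without Comp10 PI 1, 2 or 3 the adjusted p was 0.142, 0.153 and 0.113. The log2 fold change was 0.31 without DMSO PI 2 and 0.77 without DMSO PI 1. Without stimulation Rpl36 had 819 and 796 CPM in Comp10 US, against 576 and 583 CPM in DMSO US, a log2 fold change of 0.48 (SE 0.22, adjusted p = 0.211). As CPM each of the 5 compound 10 libraries was above each of the 4 vehicle libraries. As TPM they overlapped, with 2895, 3480 and 2504 in Comp10 PI, against 2595 and 1877 in DMSO PI. Rpl36 had 3424 and 3546 TPM in Comp10 US, against 2998 and 1997 TPM in DMSO US. With its copies counted in, the log2 fold change was 0.53 in stimulated cells (adjusted p = 0.0735) and 0.50 in unstimulated cells (0.194).

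Rpl5, which carries the 5S ribosomal RNA into the large subunit and binds the p53 regulator Mdm2 when ribosome assembly is disturbed, had 91.1, 213 and 108 CPM in Comp10 PI, against 85.8 and 82.3 CPM in DMSO PI. Comp10 PI 2 stood well above the other libraries of its group, and the groups did not overlap. The log2 fold change was 0.71 (SE 0.31, interval 0.02 to 1.404, adjusted p = 0.135), or 0.22 (0.397) without Comp10 PI 2 and 0.94 (0.0351) without Comp10 PI 1. Among the counts listed for Rpl5 itself, the height of Comp10 PI 2 was in Rpl5-204, a transcript annotated as retaining an intron, which had 24.7, 144 and 35.4 CPM in Comp10 PI, against 16.2 and 12.9 CPM in DMSO PI (2.23, SE 0.81, adjusted p = 0.191). The coding transcript Rpl5-201 had 51.7, 47.6 and 57.7 CPM in Comp10 PI, against 58.9 and 49.3 CPM in DMSO PI, which overlapped, and from coding transcripts alone the log2 fold change of Rpl5 was 0.04 (adjusted p = 0.923). With its copies summed, Rpl5 had 3281, 5519 and 4103 CPM in Comp10 PI, against 3425 and 3480 CPM in DMSO PI, which overlapped, and the log2 fold change was 0.32 (SE 0.26, adjusted p = 0.432). Comp10 PI 2 was the highest there too, and the copy Gm15500 held 472693 counts, against 14007 for Rpl5. The values of single Rpl5 transcripts thus rest on a small part of these reads. Rpl11, the partner of Rpl5 in the same particle, had 850, 564 and 839 CPM in Comp10 PI, against 660 and 673 CPM in DMSO PI, and a log2 fold change of 0.17 (SE 0.25, adjusted p = 0.690). For Rpl35 the values were 534, 941 and 564 CPM in Comp10 PI, against 571 and 464 CPM in DMSO PI, which overlapped (log2 fold change 0.39, SE 0.25, adjusted p = 0.298), and without Comp10 PI 2 the log2 fold change was 0.06 (adjusted p = 0.847). Rps18 had 2641, 2683 and 2820 CPM in Comp10 PI, against 2193 and 2313 CPM in DMSO PI, without overlap (0.27, SE 0.20, adjusted p = 0.387).

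The stalk of the large subunit, which recruits translation factors, is built of Rplp0, Rplp1 and Rplp2. Rplp0 had 8867, 7006 and 9017 CPM in Comp10 PI, against 9570 and 8942 CPM in DMSO PI, overlapping between the groups. Rplp1 had 2990, 1655 and 2976 CPM in Comp10 PI, against 2640 and 2895 CPM in DMSO PI. Rplp2 had 1441, 819 and 1364 CPM in Comp10 PI, against 1177 and 1188 CPM in DMSO PI. Comp10 PI 2 was the lowest of the 5 libraries for all 3 genes, and the log2 fold changes of -0.16, -0.12 and 0.03 had adjusted p of 0.689, 0.828 and 0.961.

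**Figure D2:**
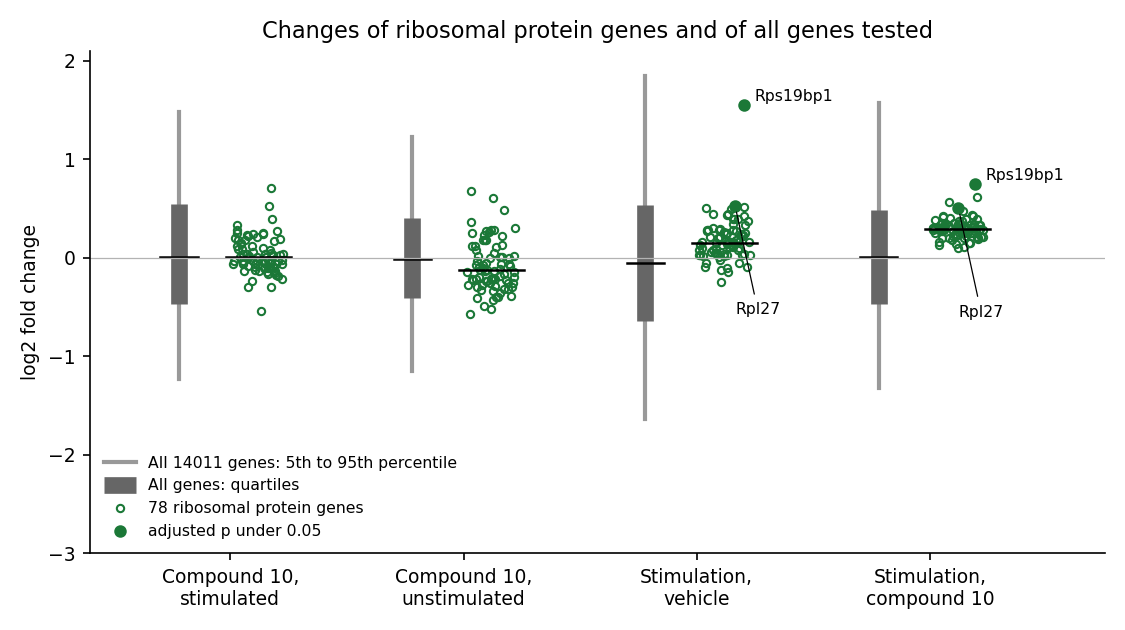
Log2 fold change (y axis) of 78 ribosomal protein genes (green circles, filled where the adjusted p is under 0.05; black line, median) beside all 14011 genes tested (dark bar, quartiles; light line, 5th to 95th percentile), for compound 10 against vehicle in stimulated and unstimulated cells and for stimulation in vehicle and under compound 10. The members lie in a narrow band inside the spread of all genes, with medians of 0.00, -0.13, 0.15 and 0.29.

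In unstimulated cells compound 10 also left every ribosomal protein gene short of the threshold. Of 78 members 0 were higher and 0 lower in Comp10 US than in DMSO US by edgeR, against 7.36% of all genes called (4.45% higher and 2.91% lower), and 2 had an unadjusted p under 0.05. DESeq2 gave 0 as well. The median log2 fold change was -0.13, with 25 members above 0, and all genes had a median of -0.01. That direction hung on the vehicle libraries, since the median was 0.34 without DMSO US 2 and -0.50 without DMSO US 1. The interval lay within 2-fold for 55 members (70.5%), against 36.5% of all genes. The groups did not overlap in 11 members, while 55.5% of all genes did not overlap.

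Rpl35 had 525 and 573 CPM in Comp10 US, against 353 and 369 CPM in DMSO US, without overlap, a log2 fold change of 0.60 (SE 0.27, interval 0.02 to 1.19, adjusted p = 0.208). Rpl5 had 101 and 104 CPM in Comp10 US, against 56.2 and 72.1 CPM in DMSO US, also without overlap (0.68, SE 0.34, adjusted p = 0.271). Without Comp10 PI 2, which is in neither group but enters the shared estimate of spread, Rpl5 and Rpl35 passed at adjusted p of 0.0244 and 0.0491. With copies summed the log2 fold change was 0.27 for Rpl5 (adjusted p = 0.621) and 0.55 for Rpl35 (0.237), and counted over its coding transcripts alone Rpl5 had -0.09. Rps19 had 3999 and 3678 CPM in Comp10 US, against 2773 and 3197 CPM in DMSO US, without overlap (0.36, SE 0.22, adjusted p = 0.371). Rps13, a small-subunit protein at the face toward the large subunit, had 589 and 467 CPM in Comp10 US, against 496 and 1016 CPM in DMSO US. Its vehicle libraries lay further apart than its groups, and the log2 fold change of -0.52 (SE 0.34, adjusted p = 0.411) was 0.10 without DMSO US 2.

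Stimulation in vehicle was followed by a higher level of 2 members. Rps19bp1 and Rpl27 were higher in DMSO PI than in DMSO US, 2 of 78 members, against 14.4% of all genes higher and 28.1% called in either direction. No member was lower, by edgeR or DESeq2, against 13.8% of all genes. The median log2 fold change of the members was 0.15, with 69 of 78 above 0, while all genes had a median of -0.05. The median was -0.19 without DMSO US 1 and 0.61 without DMSO US 2. The groups did not overlap in 15 members, while 63.4% of all genes did not overlap. The scaled values of most members were thus higher in stimulated libraries although their share of raw counts was lower, with scaling factors of 0.858 and 0.882 in DMSO PI, against 1.31 and 0.931 in DMSO US. As TPM, with no such scaling, the median of the members was -0.09 and that of all genes -0.17.

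Rps19bp1 rose with stimulation. It had 35.6 and 27.1 CPM in DMSO PI, against 11.02 and 10.4 CPM in DMSO US, and both stimulated libraries were above both unstimulated ones. The log2 fold change was 1.55 (SE 0.23, interval 1.05 to 2.05, adjusted p = 0.000399). Rpl27 (chromosome 11, 101442298 to 101445529, plus strand), a large-subunit protein, had 119 and 112 CPM in DMSO PI, against 76.3 and 84.2 CPM in DMSO US, a log2 fold change of 0.52 (SE 0.17, interval 0.16 to 0.89, adjusted p = 0.0345). With its copies summed, Rpl27 had 835 and 842 CPM in DMSO PI, against 603 and 943 CPM in DMSO US, which overlapped, and the log2 fold change was 0.12 (SE 0.27, adjusted p = 0.796). Leaving out any of the 4 libraries of this comparison left Rpl27 short of the threshold, with adjusted p of 0.0716 to 0.201. Rps19bp1 passed with each library left out.

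The next members did not pass. Rpl35 had 571 and 464 CPM in DMSO PI, against 353 and 369 CPM in DMSO US (log2 fold change 0.52, SE 0.27, adjusted p = 0.181). Rplp0 had 9570 and 8942 CPM in DMSO PI, against 6142 and 7049 CPM in DMSO US (0.49, SE 0.26, adjusted p = 0.181). Rpl41, among the shortest proteins known, had 1950 and 1802 CPM in DMSO PI, against 1193 and 1615 CPM in DMSO US (0.42, SE 0.22, adjusted p = 0.192). In each of these 3 genes both stimulated libraries were above both unstimulated ones. Rplp1 and Rplp2 had log2 fold changes of 0.10 and 0.04, with DMSO US 2 the highest and DMSO US 1 the lowest of the 4 libraries.

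Under compound 10 the same 2 genes were higher with stimulation, against 11% of all genes higher and 21.8% called in either direction. No member was lower, by edgeR or DESeq2, against 10.8% of all genes. Rps19bp1 had 18.1, 25.9 and 20.6 CPM in Comp10 PI, against 13.2 and 12.4 CPM in Comp10 US, a log2 fold change of 0.75 (SE 0.21, interval 0.29 to 1.21, adjusted p = 0.0238). Rpl27 had 102, 96.5 and 111 CPM in Comp10 PI, against 73.2 and 72.6 CPM in Comp10 US (0.50, SE 0.15, interval 0.16 to 0.84, adjusted p = 0.0359), and 0.31 with its copies summed (adjusted p = 0.422). All 78 members had a log2 fold change above 0, between 0.10 and 0.75, with a median of 0.29 against 0.00 for all genes. The median was 0.095 without Comp10 US 2 and 0.53 without Comp10 US 1. As TPM that median was -0.15, beside -0.21 for all genes, so the sign depends on the scale. The groups did not overlap in 12 members, while 49.6% of all genes did not overlap. Without either Comp10 US library neither gene passed (0.105 and 0.158 for Rps19bp1, 0.173 and 0.194 for Rpl27), and without Comp10 PI 3 neither did (0.0520 and 0.123).

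Rps13 had 903, 536 and 903 CPM in Comp10 PI, against 589 and 467 CPM in Comp10 US (log2 fold change 0.56, SE 0.32, adjusted p = 0.242). Rpl7a, a large-subunit protein, had 1311, 768 and 1280 CPM in Comp10 PI, against 940 and 669 CPM in Comp10 US (0.48, SE 0.28, adjusted p = 0.263). In both genes Comp10 PI 2 lay inside the unstimulated range. Rpl41 had 1837, 1652 and 1830 CPM in Comp10 PI, against 1464 and 1332 CPM in Comp10 US, without overlap (0.34, SE 0.21, adjusted p = 0.276).

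**Figure D3:**
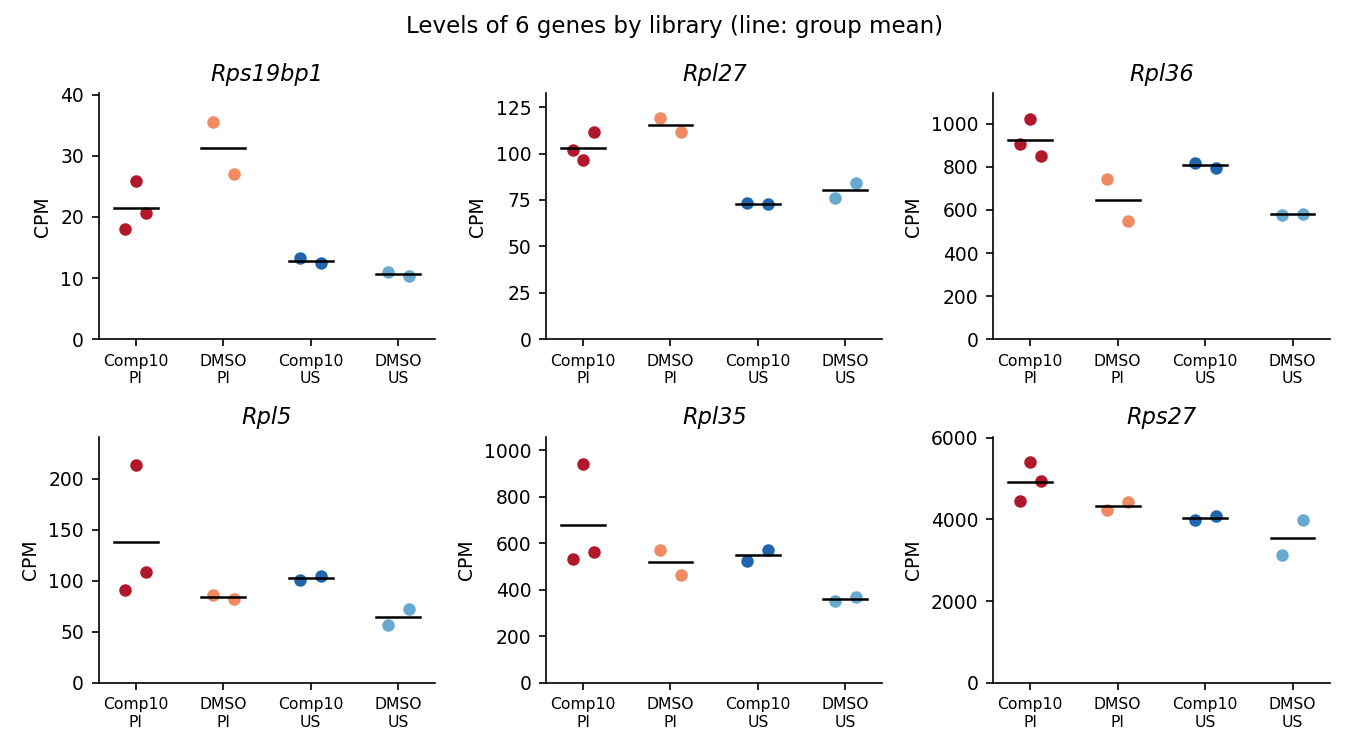
CPM (y axis, from 0) of Rps19bp1, Rpl27, Rpl36, Rpl5, Rpl35 and Rps27 in each library (points) by group, with the group mean (line). Rps19bp1 lies at 27.1 and 35.6 CPM in DMSO PI and at 10.4 to 13.2 CPM in the unstimulated groups, and Rpl36 is at 796 to 1022 CPM in the compound 10 libraries and at 548 to 744 CPM in the vehicle libraries.

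Whether the compound 10 difference itself differed between stimulated and unstimulated cells was tested as an interaction. By edgeR 0 members were higher and 0 lower, and by DESeq2 0, against 1.03% of all genes by edgeR (0.421% higher and 0.607% lower), and 1 member had an unadjusted p under 0.05. That was Rps19bp1, with -0.80 on the log2 scale (SE 0.31, interval -1.47 to -0.13, adjusted p = 0.242). Rpl12 (0.58, SE 0.56), Rpl10 (0.31, SE 0.38) and Rpl39 (0.53, SE 0.64) were also among the smallest p, with adjusted p of 0.729 to 0.794. In Rpl12 and Rpl39 DMSO US 2 was the highest of the 9 libraries, and without it the values of these 3 genes were below 0. Rpl39 had 999, 469 and 956 CPM in Comp10 PI and 708 and 866 CPM in DMSO PI, against 729 and 503 CPM in Comp10 US and 485 and 1251 CPM in DMSO US. Rpl10 had 864, 619 and 939 CPM in Comp10 PI and 701 and 629 CPM in DMSO PI, against 730 and 541 CPM in Comp10 US and 496 and 807 CPM in DMSO US. Rpl12, at the base of the stalk, had 29.97, 20.97 and 25.7 CPM in Comp10 PI and 18.3 and 24.8 CPM in DMSO PI, against 20.3 and 13.2 CPM in Comp10 US and 11.4 and 30.6 CPM in DMSO US. The interval of the interaction lay within 2-fold for 29 of 78 members, so for the other members a 2-fold difference between the states lies inside the interval.

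The members moved together from library to library within a group. In DMSO US 2, 76 of 78 were above their group's mean, with a median deviation of 0.41 on the log2 CPM scale, and in Comp10 US 2, 75 were below it (median -0.20). In Comp10 PI 2, 72 were below (median -0.40), and in DMSO PI 2, 58 were above (median 0.07). The median of all genes stayed within 0.02 of 0 in the same libraries. In each group the order of the libraries by the level of these genes was the order by their share of ribosomal RNA counts, nuclear and mitochondrial together. That share was 33.5% in DMSO US 2 and 11.9% in DMSO US 1, and 9.15% in Comp10 PI 2, against 16.0% and 15.3% in Comp10 PI 1 and 3. By nuclear ribosomal RNA alone the order was the same, with 26.5% in DMSO US 2 and 4.74% in DMSO US 1. The part of ribosomal RNA in this order was not tested.

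Among members, 66 of 78 followed the median member with a correlation above 0.8 over the 9 deviations from the group means, a description in which each gene is part of the median and libraries of a pair mirror each other. The 5 with a correlation below 0 were Rpl35 (-0.60), Rps19bp1 (-0.55), Rpl5 (-0.40), Rpl36 (-0.36) and Rps2 (-0.06), the last with next to none. Rps27 and Rps19, the highest members, were at 0.22 and 0.36. Rpl36, Rpl5 and Rpl35 are also the members that stood among the smallest p for compound 10 in both states. Messages of 17 other genes known to carry a TOP tract, such as the elongation factors Eef1a1 and Eef2, deviated the same way, with medians of 0.25 in DMSO US 2, -0.21 in Comp10 US 2, -0.33 in Comp10 PI 2, where 17 of 17 were below, and 0.06 in DMSO PI 2. The 78 mitochondrial ribosomal protein genes had medians of -0.07, 0.00, 0.16 and -0.13 in the same 4 libraries. The members' mRNAs are short, with a median effective length of 513 bases against 1921 for all genes tested. Differences between libraries 2 and 1 of a group had Spearman correlations with length of -0.26 to 0.03 within the members. Over all genes tested these were -0.16 to 0.13, and the part of length in the shared deviations was not tested.

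**Figure D4:**
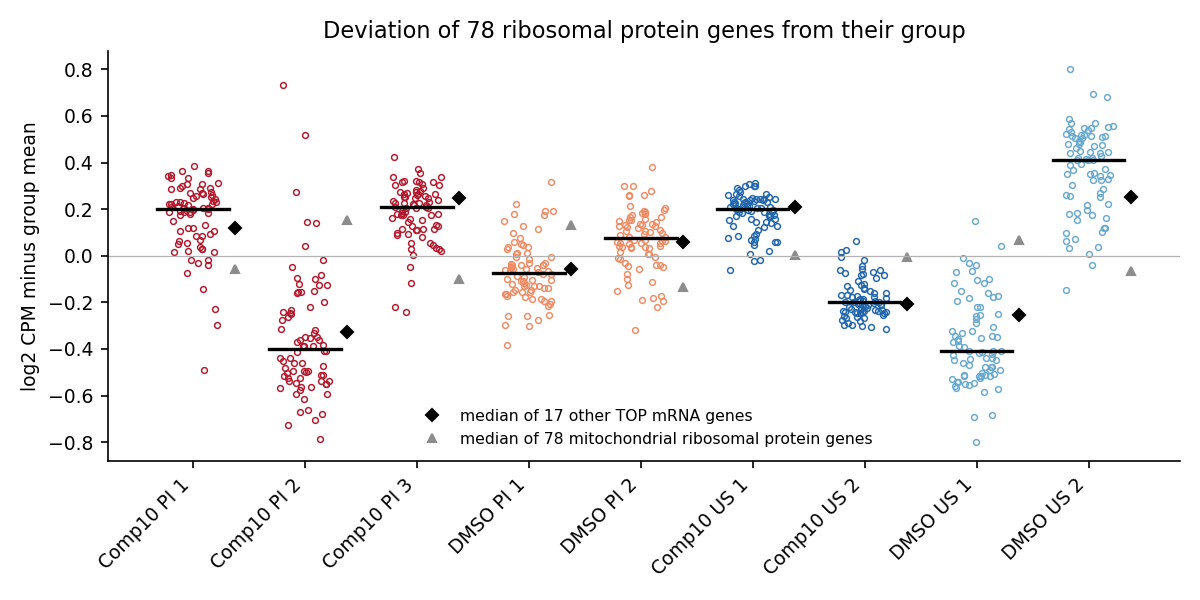
Log2 CPM minus the mean of the library's group (y axis) for 78 ribosomal protein genes (circles; black line, median) in each of the 9 libraries, with the median of 17 other TOP genes (black diamonds) and of 78 mitochondrial ribosomal protein genes (grey triangles). The members sit together above the group mean in DMSO US 2 (median 0.41) and below it in Comp10 PI 2 (median -0.40), and the other TOP genes are on the same side in all 9 libraries.

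Counts were also compared without DMSO US 2 and Comp10 PI 2, a choice made after the values were seen and assuming that the lone DMSO US library varies like the others. Neither DMSO US library was further from its group's mean, the members' median deviations being -0.41 and 0.41. Leaving out DMSO US 2, the higher one, by itself raises the members in comparisons against DMSO US. Stimulation in vehicle then had a median log2 fold change of 0.67 over the members and 0.03 over the 14764 genes then tested. The members' median was -0.19 without DMSO US 1 alone, so its sign hung on which vehicle library was kept. Leaving out Comp10 PI 2, in which 72 of 78 members were below their group's mean, likewise by itself raises most members in Comp10 PI. Without both libraries, stimulation under compound 10 had log2 fold changes of 0.60 for Rps19bp1 and 0.55 for Rpl27. With compound 10 in stimulated cells Rps19bp1 had a log2 fold change of -0.72. In unstimulated cells, against the lone DMSO US library, the members' median was 0.37 and Rpl5 had 0.91. Without DMSO US 2 alone, the members' median for stimulation in vehicle was 0.61.

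At the level of single transcripts, 293 transcripts of the members were tested among 30059. Stimulation in vehicle had 5 higher and 0 lower, against 8.41% of all transcripts called (5.39% higher and 3.02% lower). They were Rps19bp1-201 (log2 fold change 1.503), Rpl13-202 (1.59), Rpl41-206 (1.11), Rpl34-201 (0.69) and Rpl27-202 (0.59), with adjusted p of 0.0102 to 0.0486. Rpl41-206, a coding transcript, had 409 and 306 CPM in DMSO PI, against 150 and 183 CPM in DMSO US, and 321, 299 and 333 CPM in Comp10 PI, against 151 and 119 CPM in Comp10 US. It was the 1 member transcript higher with stimulation under compound 10 (1.23, adjusted p = 0.0132), against 5.85% of all transcripts called (3.54% higher and 2.31% lower). Every stimulated library was above every unstimulated one, while the whole gene Rpl41 passed in neither state. Compound 10 had 1 member transcript higher in stimulated cells, against 4.7% of all called (2.19% higher and 2.52% lower), and 0 in unstimulated cells, against 0.459% (0.25% higher and 0.21% lower). The interaction had 0, against 0.00998% (0.00333% higher and 0.00665% lower). That transcript was Rps9-204, with 32.03, 19.0 and 30.5 CPM in Comp10 PI, against 9.68 and 7.72 CPM in DMSO PI (1.64, adjusted p = 0.0497).

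Transcripts annotated as retaining an intron took a larger share of member counts with stimulation. They held 1.25%, 1.39% and 1.28% of member counts in Comp10 PI and 1.30% and 1.33% in DMSO PI, against 1.10% and 1.15% in Comp10 US and 1.03% and 0.995% in DMSO US. Every stimulated library was above every unstimulated one, and the compound 10 and vehicle libraries overlapped among the stimulated. Of 84 such member transcripts, 77 had a positive log2 fold change with stimulation in vehicle (median 0.80) and 81 under compound 10 (median 0.79), while the 4927 retained-intron transcripts of all genes had medians of -0.01 and -0.05. Of the 84, 1 passed in vehicle, the Rpl13-202 named above, which had 7.52 and 7.08 CPM in DMSO PI, against 2.67 and 2.16 CPM in DMSO US, and 0 passed under compound 10, against 3.43% and 2.19% of all retained-intron transcripts. Member transcripts annotated as processed transcripts, which are noncoding but not labelled as retaining an intron, leaned the same way. Of 34, 27 were above 0 in vehicle (median 0.63) and 30 under compound 10 (median 0.64), with 0 called in each, while the 2202 of all genes had medians of 0.18 and 0.14. Their share of member counts was 1.27%, 1.35% and 1.29% in Comp10 PI and 1.21% and 1.26% in DMSO PI, against 1.13% and 1.22% in Comp10 US and 1.03% and 1.30% in DMSO US, which overlapped. By the same type label, other coding genes had 2.03% to 3.13% of their counts in retained-intron transcripts.

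Genes whose products handle ribosomal proteins were measured as well. Of 9 chaperones and import or loading factors of ribosomal proteins, 8 were lower and 0 higher in Comp10 PI than in DMSO PI, against 11.4% of all genes lower, with a median log2 fold change of -0.86. Tsr2, the chaperone of Rps26, had 15.8, 15.2 and 15.6 CPM in Comp10 PI, against 35.3 and 40.2 CPM in DMSO PI (-1.28, SE 0.17, adjusted p = 0.000295). Rrs1, which in yeast loads Rpl5, Rpl11 and their RNA with Rpf2, had 36.9, 42.9 and 31.0 CPM in Comp10 PI, against 81.3 and 78.7 CPM in DMSO PI (-1.11, SE 0.18, adjusted p = 0.000898). Pdcd2l, a partner of Rps2 in export of the small subunit, fell by 1.27, Rpf2 by 1.02 and Grwd1, a chaperone of Rpl3, by 0.86, and Bccip, Heatr3 and Ltv1 by 0.75, 0.72 and 0.66 on the log2 scale. Pdcd2, a chaperone of Rps2, had -0.10 and did not pass. Without DMSO PI 1 the count was 4 and without DMSO PI 2 it was 5, and as TPM it was 3.

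In unstimulated cells 2 of these 9 were lower with compound 10, against 2.91% of all genes lower, Rpf2 (-0.98, adjusted p = 0.0308) and Pdcd2l (-0.83, adjusted p = 0.0327), and 0 once any library of the comparison was left out. With stimulation 6 were higher in vehicle, against 14.4% of all genes, among them Grwd1 (2.56), Rpf2 (2.23), Rrs1 (2.20) and Ltv1 (1.69), and 4 under compound 10 (Rpf2, Grwd1, Rrs1 and Ltv1 at 2.19, 1.91, 1.56 and 1.26). The DMSO PI libraries enter both the compound 10 and the stimulation comparison. The interaction was passed by 0 of 9, the smallest adjusted p being 0.0990 for Heatr3 (-1.04), so a difference of the compound 10 response between the states was not shown.

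**Figure D5:**
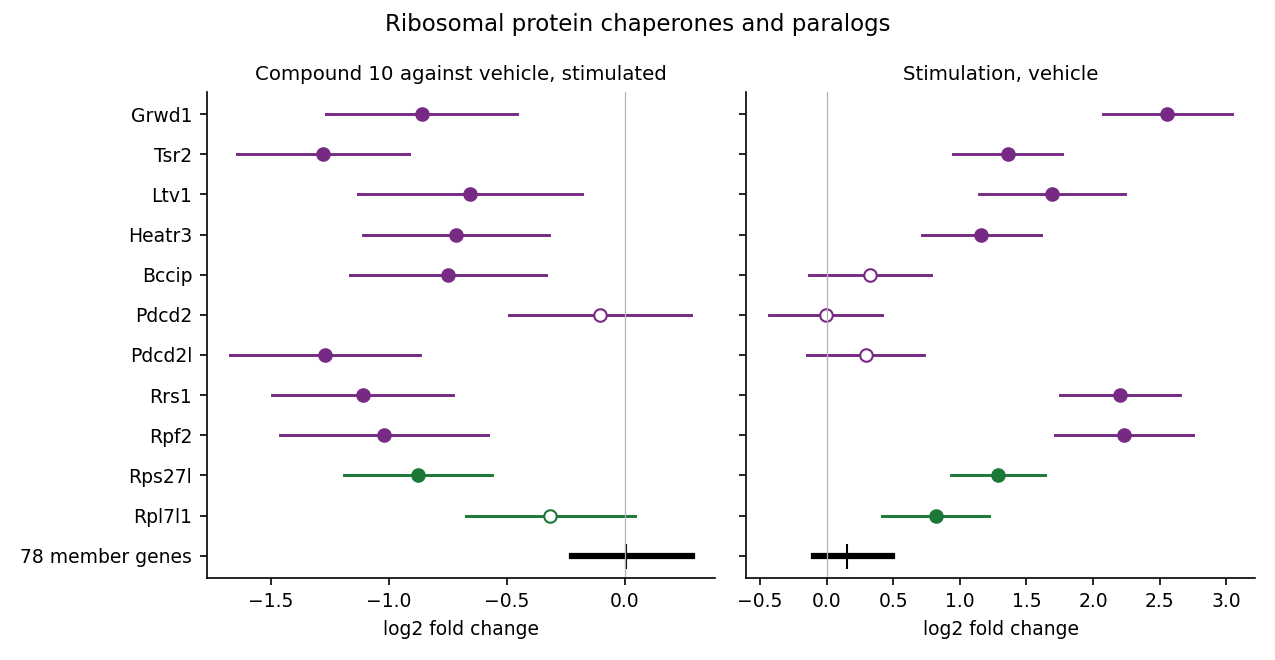
Log2 fold change (x axis; points, filled where the adjusted p is under 0.05; lines, 95% interval) of 9 ribosomal protein chaperones (purple) and the paralogs Rps27l and Rpl7l1 (green), for compound 10 against vehicle in stimulated cells (left) and stimulation in vehicle (right), above the 5th to 95th percentile and median of the 78 member genes (black). Of the 9 chaperones 8 lie below 0 on the left without touching it, where the members have a median of 0.00.

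Of the 7 paralogs left out by the rule 4 were tested. Rps27l, a target of p53 in human cells that differs little from Rps27, had 68.1, 71.0 and 68.7 CPM in Comp10 PI and 131 and 123 CPM in DMSO PI, against 37.1 and 34.7 CPM in Comp10 US and 52.9 and 51.4 CPM in DMSO US. The 4 groups did not overlap. It fell with compound 10 in stimulated cells (-0.88, SE 0.14, adjusted p = 0.00109), had -0.54 in unstimulated cells (adjusted p = 0.0647), and rose with stimulation by 1.28 in vehicle (adjusted p = 0.000123) and by 0.95 under compound 10 (0.000842). Rps27 itself had 4445, 5402 and 4924 CPM in Comp10 PI and 4224 and 4410 CPM in DMSO PI, against 3983 and 4084 CPM in Comp10 US and 3124 and 3979 CPM in DMSO US, and log2 fold changes of 0.19, 0.18, 0.28 and 0.29 in the same 4 comparisons, none of which passed. Rpl7l1 rose with stimulation in vehicle (0.82, adjusted p = 0.00554), and Rpl22l1 and Rpl36al passed in none of the comparisons. The start of Rps27l and that of Rack1, a scaffold on the small subunit with a tract of its own, are shown for comparison with those of the members above.
Rps27l, chr9:66946026-66946105, plus strand: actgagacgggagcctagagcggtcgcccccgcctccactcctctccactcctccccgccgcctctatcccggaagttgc
Rack1, chr11:48800300-48800379, plus strand: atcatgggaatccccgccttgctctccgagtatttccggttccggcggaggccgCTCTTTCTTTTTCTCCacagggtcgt
Rps27 starts within a run of 9 pyrimidines and Rps27l does not. Rack1 and Fau, whose product holds a ribosomal protein fused to a ubiquitin-like protein, passed in none of the 5 tests. Rack1 had 1379, 862 and 1388 CPM in Comp10 PI and 1174 and 1192 CPM in DMSO PI, against 1132 and 819 CPM in Comp10 US and 937 and 1735 CPM in DMSO US, with the low Comp10 PI 2 and high DMSO US 2 seen in most members.

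The 17 other TOP genes had 0 higher and 2 lower with compound 10 in stimulated cells, Eif3l (-0.75, adjusted p = 0.0160) and Nap1l1 (-0.78, adjusted p = 0.0424), and 0 in unstimulated cells. That is near the 11.4% of all genes that were lower, and without DMSO PI 1 none was. With stimulation 1 rose in each state, against 14.4% of all genes in vehicle and 11% under compound 10, Hnrnpa1 in vehicle by 1.63 (adjusted p = 0.000372). Of 20 genes of the machinery that acts on TOP messages, 1 was higher and 3 lower with compound 10 in stimulated cells, close to the 23.1% of all genes called. The lower ones were Larp4 (-1.55), which binds poly(A) and stabilises ribosomal protein messages, the cap-binding Eif4e (-0.76) and Larp4b (-0.56), and the higher one was the kinase gene Rps6ka1 (0.72). In unstimulated cells Rps6ka1 alone passed (1.02), against 7.36% of all genes. With stimulation in vehicle 6 were higher, Rheb, which activates mTORC1 (1.82), Eif4e (1.41), Larp4 (1.18) and Larp1 (1.14) among them, and 4 lower, against 14.4% and 13.8% of all genes. Mitochondrial ribosomal protein genes, read beside the cytosolic ones, had 2 higher and 27 lower of 78 with compound 10 in stimulated cells, against 11.7% and 11.4% of all genes. Fewer were lower without DMSO PI 1. In unstimulated cells 1 was higher and 6 lower, against 4.45% and 2.91% of all genes, and fewer were lower without any library of that comparison. With stimulation in vehicle 12 were higher and 12 lower. The 30.8% called in either direction is near the 28.1% of all genes called there. Fewer were higher without DMSO PI 1, and fewer were lower without DMSO PI 2. Mrps6, for example, had 140, 102 and 112 CPM in Comp10 PI, against 291 and 310 CPM in DMSO PI (-1.35, adjusted p = 0.000288), a change larger than that of any cytosolic member in the same comparison.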

How the data were processed

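RNA of splenic CD4+ T cells was sequenced after SMART-seq library preparation, per the labels' protocols. The submitters' processing notes name cutadapt, kallisto and the build mm10, without versions or a transcript annotation. Per the file headers, the deposited tables hold estimated counts, effective lengths in bases and TPM (transcripts scaled for length to a fixed library total) for 109617 transcripts, of which 108214 matched GENCODE M21 ignoring the version; the others held 0.542% to 0.829% of the counts. Counts were summed per gene and rounded. Symbols ending in l were read on the part after Rpl or Rps, which keeps Rpl3 to Rpl9. The members and lists were chosen with earlier results of these data known.

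Genes were filtered with filterByExpr, scaled with TMM and tested with edgeR 4.0.16 (quasi-likelihood, 1 coefficient per group over all 9 libraries), which gave every adjusted p not otherwise named, with Benjamini-Hochberg over 14011 genes and a threshold of 0.05. Transcripts were tested alike. Alternatives used DESeq2 1.42.0 and limma 3.58.1 on log2(TPM + 1) and log2(TPM + 0.1), and R 4.3.3. Copies were transcripts of other genes matching over at least 150 bases and 80% of the shorter sequence at 95% identity or more (blastn 2.17.0+). Named were the 5 members with the smallest p in each comparison, the extremes of TPM, the stalk, Rpl5 and Rpl11, paralogs, and from each other list the 3 genes with the smallest p. Some members and related genes under this rule are not reported here. Scripts were tested on simulated counts. Intervals cover the spread between libraries, and with 2 or 3 libraries a group the precision is low.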

Additional observations from a re-analysis of the deposited data

How the results depend on the processing

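In all 24 settings were tried, 21 planned and 3 chosen after seeing the data. With compound 10 in stimulated cells the number of members higher was 1 under upper-quartile scaling, no filter, a stricter filter, DESeq2 and coding transcripts only, and 0 to 1 with each library left out; the number lower was 0 to 1 with each library left out and 1 without DMSO US 2 and Comp10 PI 2. With compound 10 in unstimulated cells it was 1 higher with no filter, with only the 2 groups fitted and under a crossed replicate block. That block tied library 1 of each group to library 2 of the other, and called 1885 genes in all. It was among the settings chosen after seeing the data, where equal numbers correlated at -0.113 between these groups, so it is no independent check. The count was 0 to 2 with each Comp10 PI library left out. The median ran from -0.4953 to 0.3427 with each library left out and was 0.3741 without DMSO US 2 and Comp10 PI 2. With stimulation in vehicle it was 1 higher under upper-quartile scaling, no filter, limma with either pseudocount, an effective-length offset and copies summed. It was 3 without Comp10 PI 2, which is in neither group, with Rpl35 added. The members' median for stimulation in vehicle was 0.6738 without both libraries and -0.1895 to 0.6082 with each library left out. No count is given for this comparison without both libraries, since it would rest on 1 DMSO US library. With stimulation under compound 10 it was 1 higher with no filter, the length offset and copies summed, 0 with limma (medians -0.1519 and -0.152), 0 with the replicate block, 6 without both libraries, and 0 to 2 with each left out. The interaction median ran from -0.3132 to 0.4917 with each library left out.

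Signs turned for Rpl5 with compound 10 in unstimulated cells (-0.0939, coding transcripts only), Rps13 there (0.1268 without both libraries; -0.9511 to 0.0956 with each left out), Rpl41 with stimulation under compound 10 (-0.1238, both limma settings) and in the interaction for Rpl12 (-0.3154 to 1.1226 with each library left out, -0.251 without both), Rpl10 (-0.0867 to 0.6291) and Rpl39 (-0.3118 to 1.0661, -0.0976 without both). The causes were not tested. Upper-quartile scaling moved the median of all genes to -0.1174 for stimulation in vehicle. The replicate numbers were not taken as pairs, since the differences between libraries 2 and 1 did not correlate above 0.1 for every pair of groups (-0.113 to 0.385 over all genes). Over the members they correlated at 0.802 and 0.887 within vehicle and within compound 10, where all genes had 0.385 and 0.279. Between vehicle and compound 10 the members had -0.704 to -0.47. Pairs within vehicle or within compound 10 alone were not fitted, so a shift they share stays in the spread used for the stimulation comparisons. With the replicate block, which ties equal numbers across all groups, stimulation in vehicle had 2 members higher and stimulation under compound 10 had 0. Groups of 2 and 3 libraries limit every comparison, and reads of near-identical copies limit single members.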
